A study of Mus musculus with 12 samples.

Results

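Phospholipase C enzymes split the membrane lipid PIP2 into inositol trisphosphate (IP3) and diacylglycerol (DAG). IP3 opens calcium channels of the endoplasmic reticulum, and DAG activates protein kinase C and related proteins. The beta enzymes are switched on by G protein-coupled receptors through Gq class alpha subunits, the gamma enzymes by receptor tyrosine kinases, the epsilon enzyme by small GTPases such as Ras, and the delta enzymes respond to calcium.

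The genes described are 10 members of this family: Plcb1, Plcb2, Plcb3 and Plcb4 (beta), Plcd1, Plcd3 and Plcd4 (delta), Plce1 (epsilon), Plcg1 (gamma) and Plcl1, a phospholipase C-like protein without catalytic activity. The family was selected on earlier results of these data, namely the number of wild-type specific peaks at Plcb1. A peak belonged to a gene if the midpoint fell between the gene's ends or at most 10 kb outside them. This gave 48 of the 34118 peaks of the wild-type (WT) list and 29 of the 27187 peaks of the Runx1 knockout (KO) list. No peak was counted for more than 1 of the 10 genes.

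ATAC-seq marks open chromatin by the cuts of the Tn5 transposase. The cells were C2C12, an established mouse myoblast line, and the groups compared were WT and Runx1 KO cells at day 0 in growth medium with 20% fetal bovine serum (FBS). The series has 12 samples in 4 groups of 3, and the 2 groups at day 2 of differentiation medium were not analysed here. All peak names carry the label of the replicate 1 library of their genotype, so each value below comes from 1 library, has no replicate error and was not tested between genotypes. Whether the KO cells are 1 clone, and how Runx1 was disrupted, is not given in the sources used here.

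A peak is called shared when at least 1 base of it lies in a peak of the other list, and specific when none does, as in the deposited shared and specific lists. At Runx1, the targeted gene, the WT list had 19 peaks and the KO list 12, which is no readout of the edited allele. Of 6 myoblast marker genes, 5 had a peak in each list, among them Myod1, Cdh15 and Des, and Myf5 had none. A peak of either list was found at 65.8% of all protein-coding genes. Among marker genes of other cell types, Apoa2, Syp, Cdh5, Pecam1 and Krt8 had a peak in each list, and none was found at Ptprc, Cd3e, Alb, Neurod1, Snap25 and Epcam. The −log10 q and the fold, read as enrichment over local background, are the authors' values. Depth is unknown, so they rank peaks within a list only.

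At the starts of these genes the lists differed at Plcb1 and Plcb4, where the peak over the 5′ end was WT specific. The peak at the outer start of Plcd1 was shared and differed in its edges, covering the start in WT but not in KO. Near the start of Plcd3, a WT specific peak was centred 0.561 kb upstream. RefSeq gives a promoter entry for 10 of 10 genes, 13 entries in all, and a WT peak reached into the 250 bases before the start in 5 entries and a KO peak in 4. The 4 sequences that follow show the outermost start of each gene whose WT peak covered that start. They are RefSeq GRCm38.p6, 5′ to 3′ on the strand of the gene, end at the base before the start, and carry in capitals the bases inside the WT peak.
Plcb1, chr2:134785914-134786163, plus strand: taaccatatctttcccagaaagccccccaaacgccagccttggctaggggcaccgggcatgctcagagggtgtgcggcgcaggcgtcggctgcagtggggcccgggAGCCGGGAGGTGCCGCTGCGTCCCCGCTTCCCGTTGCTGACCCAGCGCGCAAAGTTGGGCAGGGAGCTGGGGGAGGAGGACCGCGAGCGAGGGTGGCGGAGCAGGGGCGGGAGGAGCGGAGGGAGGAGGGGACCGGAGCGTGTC
Plcl1, chr1:55405696-55405945, plus strand: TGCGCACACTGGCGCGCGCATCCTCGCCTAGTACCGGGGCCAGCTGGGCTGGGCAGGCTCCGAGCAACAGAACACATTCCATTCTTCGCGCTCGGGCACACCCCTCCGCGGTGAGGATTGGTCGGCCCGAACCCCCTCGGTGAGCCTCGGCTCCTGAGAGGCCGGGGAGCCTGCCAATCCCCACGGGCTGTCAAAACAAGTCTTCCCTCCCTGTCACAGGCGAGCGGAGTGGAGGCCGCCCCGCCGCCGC
Plcg1, chr2:160731060-160731309, plus strand: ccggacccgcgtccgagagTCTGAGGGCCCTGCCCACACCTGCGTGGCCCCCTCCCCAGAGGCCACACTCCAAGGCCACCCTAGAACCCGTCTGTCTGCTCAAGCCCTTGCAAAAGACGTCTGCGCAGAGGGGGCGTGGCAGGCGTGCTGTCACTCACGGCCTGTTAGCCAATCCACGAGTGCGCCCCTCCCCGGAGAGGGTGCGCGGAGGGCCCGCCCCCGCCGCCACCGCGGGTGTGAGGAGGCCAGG
Plcd1, chr9:119093503-119093752, minus strand: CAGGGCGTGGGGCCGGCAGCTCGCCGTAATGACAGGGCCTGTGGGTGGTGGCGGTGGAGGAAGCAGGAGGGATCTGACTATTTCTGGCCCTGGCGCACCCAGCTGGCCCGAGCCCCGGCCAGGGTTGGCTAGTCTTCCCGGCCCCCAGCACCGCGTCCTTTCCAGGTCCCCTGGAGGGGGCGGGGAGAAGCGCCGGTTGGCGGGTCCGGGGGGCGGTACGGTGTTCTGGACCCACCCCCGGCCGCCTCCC

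In the Plcb1 sequence 144 of the 250 bases lay in a WT peak and 0 in a KO peak. In the Plcl1 sequence all 250 lay in a peak of both lists. In the Plcg1 sequence 231 bases lay in a WT peak and 167 in a KO peak, and in the Plcd1 sequence 250 and 237. Of these promoters, Plcb1 was thus the only one whose peak had no partner in the KO list. The fifth entry reached by a peak is an inner start of Plcd1, with 157 bases in a WT peak and 214 in a KO peak.

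The 4 printed promoters lay above the median of all promoters in GC and CpG, and the inner start of Plcd1, with 58.0% GC and 8 CpG, lay above it in GC only. The GC share of the printed ones was 71.2% at Plcb1, 69.2% at Plcl1, 71.2% at Plcg1 and 72.8% at the outer start of Plcd1, against a median of 55.6% over 21044 RefSeq promoters of protein-coding genes. They held 22, 24, 21 and 20 CpG dinucleotides, against a median of 10. The 5 entries reached by a WT peak had a median GC share of 71.2%, against 58.8% over the 8 entries without one. The ranges overlapped, since the entries without a peak ran from 38.8% (Plce1, an inner start of the gene) to 85.2% (the outer entry of Plcb4, with 42 CpG).

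Motifs were searched on both strands of the 250 bases before each start, each motif counted by itself even where it overlapped another. The RUNX motif TGTGGT was in 0 of the 13 entries, and 12.2% of the 21044 promoters held it. The ETS core GGAAG was in 6 of 13, against 65.0%, with 1 match in the Plcb1 sequence, 118 bases before the start and inside the WT peak. The E-box CANNTG was in 9 of 13, against 62.8%, and the AP-1 motif TGANTCA in 1 of 13 (Plcb3), against 6.17%. A match is a description of these letters, and the search covers none of the peaks inside the genes.

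Over the family, the WT list held more peaks than the KO list, and the surplus lay in peaks without a KO partner. Of the 48 WT peaks, 20 (41.7%) were WT specific, and of the 29 KO peaks, 1 (3.45%) was KO specific. Over all peaks, 27.3% of the WT list and 9.59% of the KO list were specific. Over peaks at protein-coding genes, these shares were 25.6% and 7.94%. The class of the peaks was part of how the genes came to be described, so these shares are a description.

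**Figure D1:**
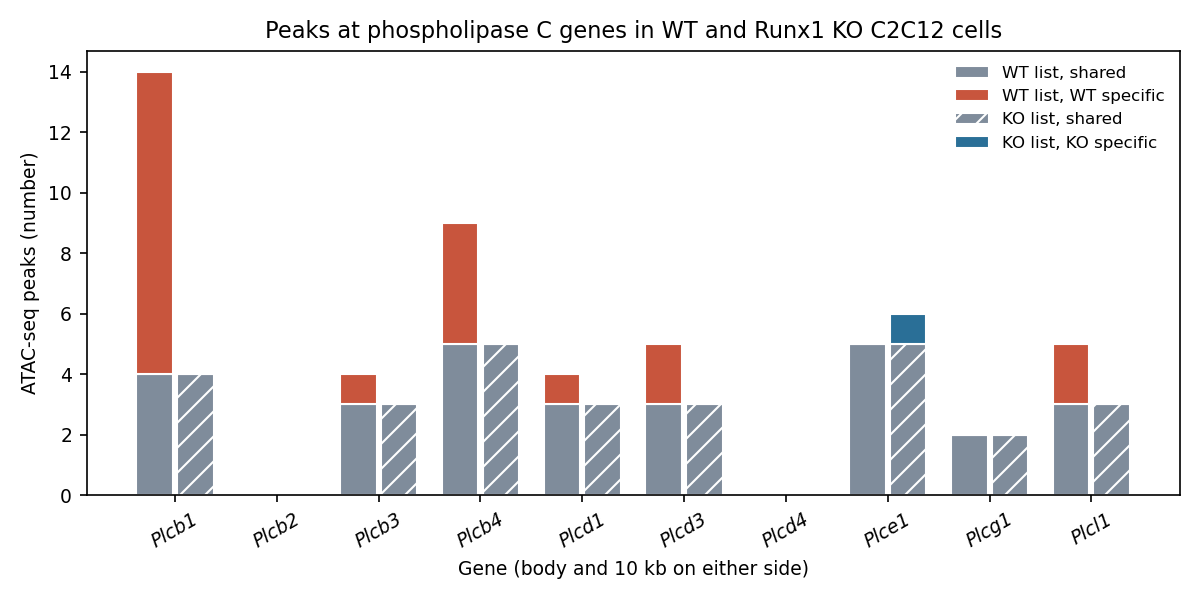
Number of ATAC-seq peaks (vertical axis) at each of the 10 genes, for the WT list (left bar) and the KO list (right bar, hatched where shared), 1 library each. Shared counts are equal in the lists at every gene, and the coloured specific part is tallest at Plcb1, with 10 WT specific peaks.

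The excess was uneven among the genes. Plcb1 alone had 10 of the 20 WT specific peaks, and Plcb4, which lies 183 kb further along chromosome 2, had 4. Without Plcb1, 10 of 34 WT peaks (29.4%) were WT specific, and without Plcb1 and Plcb4 it was 6 of 25 (24.0%). These shares lay near the 27.3% of the whole list. The other 6 were 2 at Plcd3, 2 at Plcl1, 1 at Plcb3 and 1 at Plcd1.

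The number of shared peaks was the same in both lists at every gene, 28 in all. It was 5 at Plcb4 and Plce1, 4 at Plcb1, 3 at Plcb3, Plcd1, Plcd3 and Plcl1, and 2 at Plcg1. Plcb2, the beta enzyme best known from blood cells, and Plcd4, a delta enzyme, had no peak in either list. Of all protein-coding genes, 65.8% had at least 1 peak in the WT or the KO list.

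Gene length went with these counts. The 4 genes of at least 300 kb (Plcb1, Plcb4, Plcl1 and Plce1) held 33 of the 48 WT peaks, 16 of them specific (48.5%), and the 6 shorter genes held 15, 4 of them specific (26.7%). At all protein-coding genes of at least 300 kb, 32.6% of the WT list's peaks were specific, and 15.9% of the KO list's. WT specific peaks were 10 of 14 at Plcb1, 4 of 9 at Plcb4, 2 of 5 at Plcl1 and 0 of 5 at Plce1. Without Plcb1 the long genes had 6 of 19 (31.6%), near the share of long genes as a whole.

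Among the beta enzymes, Plcb1 (chr2:134786164-135475258, 689 kb, plus strand) is widely expressed and also occurs in the nucleus. The WT list had 14 peaks there, 10 specific and 4 shared, and the KO list had 4, all shared. That is 1.97 WT peaks and 0.564 KO peaks per 100 kb of the gene and its flanks. The median over protein-coding genes of at least 300 kb with a peak was 0.831 and 0.740. Plcb1 thus lay above that median in the WT list and below it in the KO list. The 10 WT specific peaks, on which the family was selected, are part of the WT density and by definition absent from the KO one. This contrast is therefore a description only.

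The 10 WT specific peaks of Plcb1 formed a run at the start of the gene and a looser series in its distal part. The peak at the start, chr2:134786020-134786198, was 179 bp wide with a −log10 q of 6.27. Further peaks lay 32.8, 99.97, 126.7, 150 and 161 kb after the start, with a −log10 q of 7.37, 8.41, 6.68, 8.50 and 7.83. The first 6 WT peaks of the gene were therefore all WT specific, and the first KO peak of the gene lay at 266 kb. The distal ones lay at 457, 510, 584 and 686 kb, with a −log10 q of 7.33, 12.003, 10.8 and 8.97.

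All 10 were weak peaks of the WT list. Their −log10 q ran from 6.27 to 12.003 with a median of 8.12, against 16.1 over the list, and their fold from 6.17 to 8.91, against 9.10. Their widths ran from 172 to 386 bp, against a list median of 371 bp. In the whole list, WT specific peaks had a median −log10 q of 8.38, so the 10 were of usual strength for their class.

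The 4 shared peaks of Plcb1 included its strongest. At chr2:135051990-135052336, 266 kb after the start, the WT peak had a −log10 q of 20.4 and a fold of 11.6, and its KO partner had 29.7 and 12.6 and was 567 bp wide against 347 bp. At chr2:135059851-135060046, 274 kb after the start, the values were 19.2 (WT) and 11.6 (KO). At 372 kb they were 8.59 and 13.5, and at 668 kb they were 14.3 and 6.39. Within the KO list, 29.7 was the highest and 6.39 the lowest value at the gene.

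**Figure D2:**
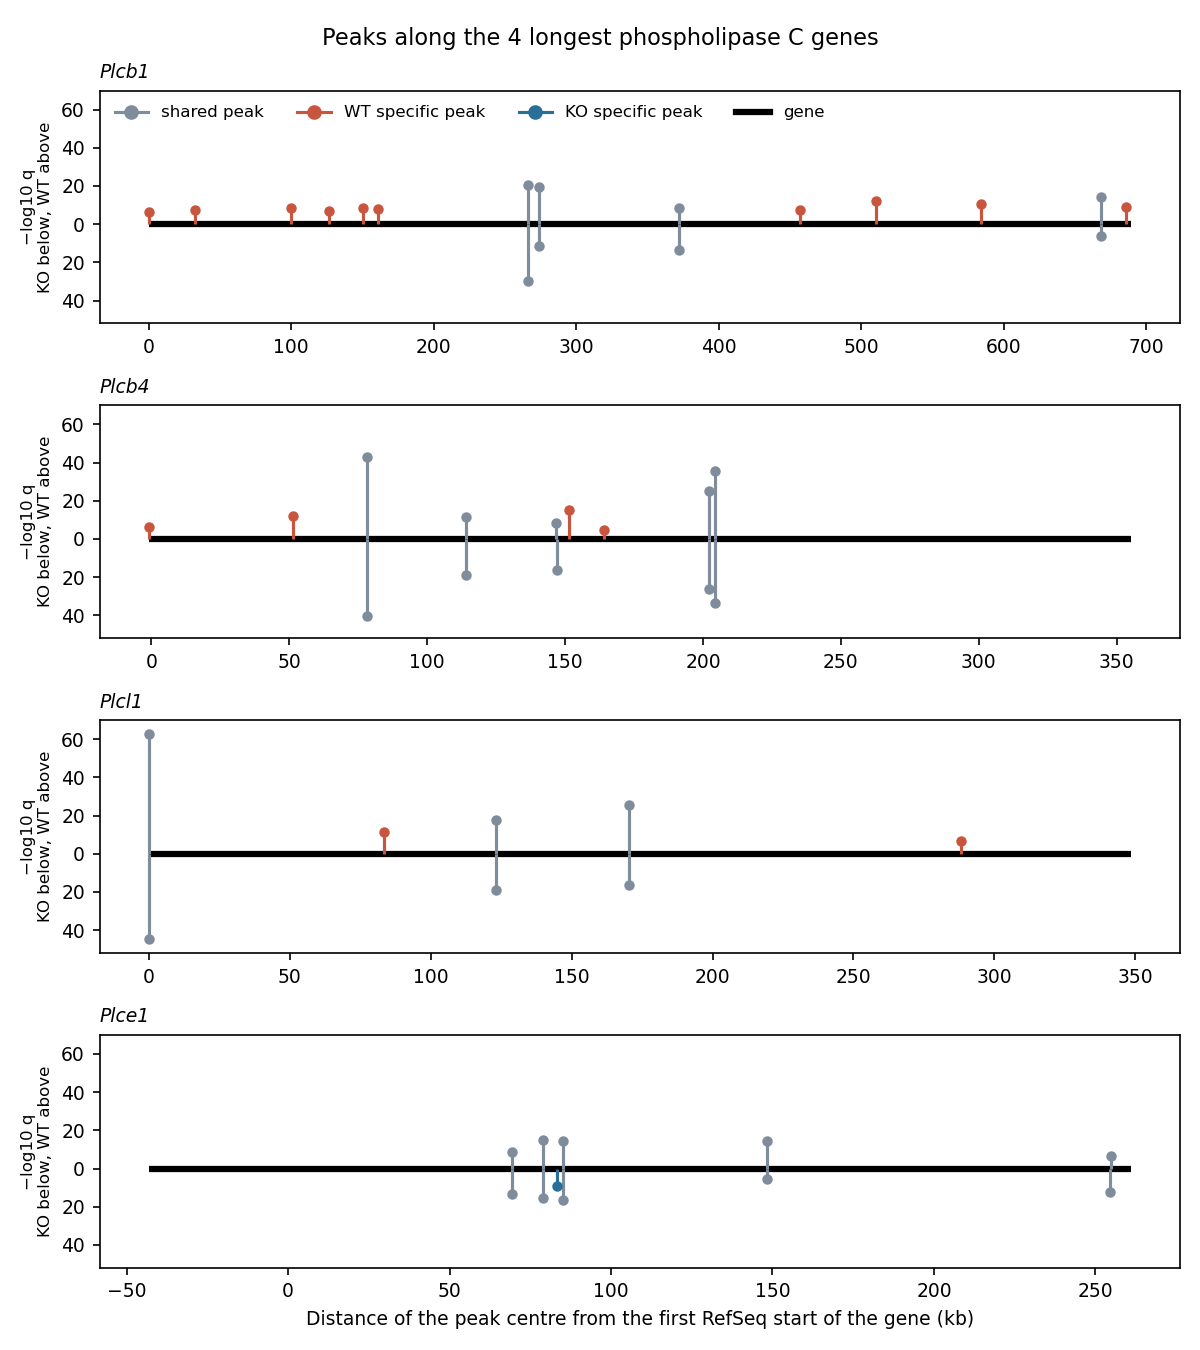
Peaks along the 4 longest genes, by distance of the peak centre from the first RefSeq start (kb), with the −log10 q of WT peaks drawn upward and of KO peaks downward, each on the scale of its own list. Plcb1 opens with 6 WT specific peaks in its first 161 kb, and Plcl1 has its strongest peak of both lists at its start.

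The peak names carry numbers that run in order of position, and some numbers are absent from the deposited lists. Between the KO peaks that flank the 6 proximal WT specific peaks, a stretch of 408 kb, 7 KO numbers are missing. Another 7 are missing in the 296 kb around the specific peaks at 457, 510 and 584 kb, and 1 in the 71.5 kb around the peak at 686 kb. The WT list also skips 5 of the 19 numbers between its first and last peak at Plcb1. What the missing numbers stood for, and where those intervals lay, was not tested.

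Over the family, 19 of the 20 WT specific peaks had at least 1 missing KO number between their KO neighbours. Over all WT specific peaks this was 87.1%. Peaks in the same stretch share its missing numbers, as the proximal peaks of Plcb1 do, so they are not separate observations. The exception lay in the flank of Plcd1. The single KO specific peak, at Plce1, had no missing WT number beside it, against 87.4% of KO specific peaks with one.

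Plcb4, a beta enzyme known from sensory and cerebellar neurons, spans chr2:135658603-136014602 on the plus strand. It had 9 WT peaks, 4 of them specific, and 5 KO peaks, all shared. The specific peak at chr2:135658554-135658727 covered the outermost 5′ end of the gene in RefSeq and had a −log10 q of 6.499. The promoter entry lies further in, with its start 0.907 kb past the centre of that peak. At Plcb1 and at Plcb4 alike, the peak over the 5′ end was thus WT specific and weak.

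The other specific peaks of Plcb4 lay 51.3, 152 and 164 kb after the first promoter entry, with a −log10 q of 11.9, 15.2 and 4.68. The value of 15.2, at chr2:135810951-135811168, was the highest of all 20 WT specific peaks of the family. The strongest shared peak lay 78.2 kb after that start, with a −log10 q of 43.0 in the WT and 40.4 in the KO list, and was 341 bp wide in WT and 861 bp in KO. The shared pair at 202 and 204 kb had 24.9 and 35.8 in WT and 26.4 and 33.5 in KO. All 9 WT peaks were centred at most 204 kb after the first promoter entry, in a gene of 356 kb.

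Between the windows of Plcb1 and Plcb4, the WT list had 7 more peaks, 3 of them specific, and the KO list had 4, all shared. The share of WT specific peaks was therefore 14 of 23 (60.9%) at the 2 genes and 3 of 7 between them.

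Plcb3, a widely expressed beta enzyme, lies at chr19:6953708-6975006 among close neighbours. It had 4 WT peaks, 1 of them specific, and 3 KO peaks. Only the peak at chr19:6974232-6974920 (−log10 q 17.2 in WT, 14.2 in KO) had its centre in the gene, 0.472 kb from the start of the neighbour Ppp1r14b. The strongest, chr19:6979647-6980672 (55.9 and 33.5), was centred in Fkbp2, 0.073 kb from its start. The WT specific peak, chr19:6976294-6976517, lay in Ppp1r14b and had a −log10 q of 4.92 and the lowest fold of the 20, 3.02. No peak lay at the Plcb3 promoter entry itself, but that entry is an inner start of this minus-strand gene. The peak at chr19:6974232-6974920 was centred 4.76 kb upstream of the entry. It lay close to the outermost 5′ end of the gene, at 6975006, without covering it.

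The delta enzymes had 9 WT peaks, 3 of them specific, and 6 KO peaks. Plcd1 (chr9:119071527-119093502, minus strand), the best studied delta enzyme, had 3 shared peaks in its outer part. Their −log10 q was 15.9, 16.1 and 11.2 in WT and 11.8, 9.40 and 5.64 in KO. The peak at the outer start was 332 bp wide in WT, where it covered the start, and 248 bp in KO, where it lay just upstream of it. The WT specific peak chr9:119102349-119102698 (−log10 q 9.71) lay 0.014 kb from the start of the neighbour Dlec1 and 9.02 kb outside Plcd1.

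Plcd3 (chr11:103070296-103101710, minus strand) had 5 WT and 3 KO peaks. The strongest, chr11:103102544-103103098, was centred in the neighbour Acbd4, 1.16 kb upstream of the Plcd3 start, with a −log10 q of 60.02 in WT and 45.8 in KO. Close to it lay the WT specific peak chr11:103102093-103102346, with a −log10 q of 4.82 and a fold of 3.41. That peak was 0.365 kb from the nearest KO peak and was the only one of the 20 within 500 bp of one. The second specific peak, chr11:103099194-103099406, lay in Plcd3 and had a −log10 q of 13.8. The shared peak at chr11:103066697-103067892 (55.5 and 33.3) was centred in Nmt1.

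Among the remaining members, Plcl1 (chr1:55405946-55754285), which binds IP3 and is known to regulate receptor trafficking, had the strongest peak of the family in the WT list. At its start, chr1:55405671-55406168, the WT peak had a −log10 q of 62.6 and a fold of 20.3, and the KO peak had 44.6 and 14.0. Further shared peaks lay at 123 and 170 kb, with 17.7 and 25.4 in WT and 18.8 and 16.6 in KO. The specific peaks at 83.6 and 288 kb had a −log10 q of 11.3 and 6.67. Plcl1 thus had an open start in both lists and specific peaks only inside the gene.

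Plce1 (chr19:38481034-38785105), the Ras effector, was the only member with a KO specific peak and had no WT specific one. The KO specific peak, chr19:38607377-38607567, had a −log10 q of 8.99 and a fold of 5.68, and a WT peak lay 1.68 kb away. The 5 shared peaks had a −log10 q from 6.76 to 14.8 in WT and from 5.61 to 16.7 in KO. None lay at the promoter entry, which is 69.2 kb from the nearest peak of the gene. That entry is an inner start of this plus-strand gene, whose outermost 5′ end is at 38481034. No peak of the gene covered that end either.

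Plcg1 (chr2:160731310-160775760), the enzyme recruited by growth factor receptors, had 2 peaks in each list, all shared. The peak at its start, chr2:160731079-160731611, had a −log10 q of 21.7 in WT and 22.2 in KO. The peak 8.69 kb further in had 24.8 and 12.9. Plcg1 and Plce1 were the members with peaks whose WT peaks all had a KO partner.

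Peak strength bears on these counts, since weak peaks are more often specific in the whole list. When the WT list was cut into 5 classes of equal size by −log10 q, the specific share fell from 65.5% in the weakest to 42.4%, 21.5%, 6.49% and 0.645% in the strongest. The WT peaks of the family numbered 11, 13, 12, 6 and 6 in these classes, and 10, 8, 2, 0 and 0 of them were specific. At the list's own shares the 48 peaks would hold 15.7 specific ones (32.8%), against 20 found. At Plcb1 the figures were 6.31 and 10, and over the other genes 9.41 and 10. The family was selected on the count of 10 at Plcb1, so the surplus there, and in the total, is a description only. In the KO list, cut the same way, the specific share was 28.3%, 13%, 4.97%, 1.49% and 0.221%. The KO peaks of the family numbered 6, 7, 7, 3 and 6, and the specific one was in the weakest class, against 3.01 at the list's own shares. Among peaks with a −log10 q of at least 10, 6 of 30 WT peaks and 0 of 23 KO peaks of the family were specific, against 14.4% and 4.49% of the whole lists. When partners also had to reach 10, it was 11 of 30 WT peaks (36.7%) and 4 of 23 KO peaks (17.4%) of the family. The shares of the whole lists were then 24.1% and 12.2%. The KO share of the family was thus below that of the list under the former limit and above it under the latter.

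**Figure D3:**
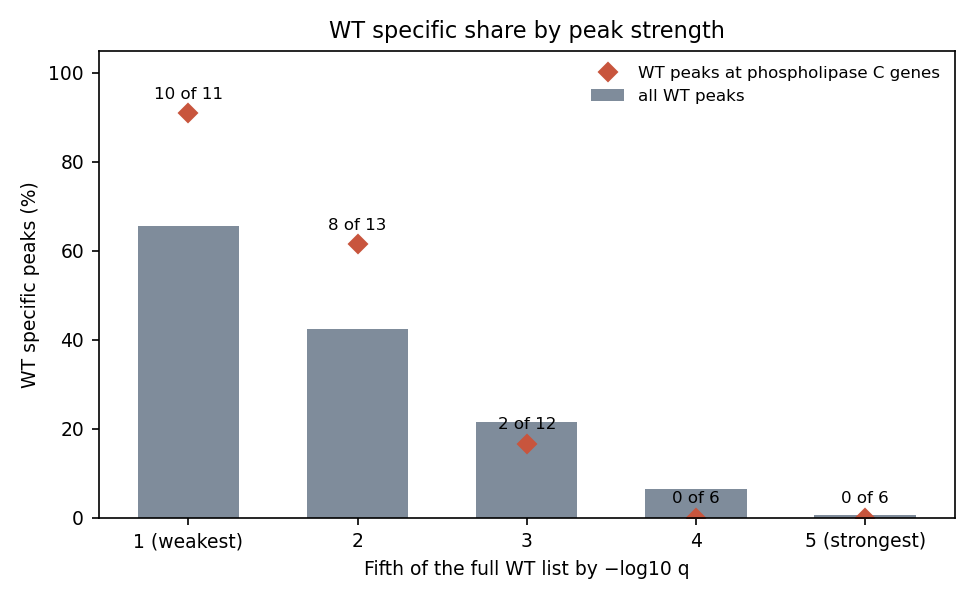
Share of WT specific peaks (%) in 5 classes of the WT list by −log10 q, for all WT peaks (bars) and for the 48 WT peaks of the family (diamonds, with counts). The specific peaks of the family lie in the 3 weaker classes, and the 12 peaks in the stronger 2 classes were all shared.

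Within the family, too, specific peaks were weaker and narrower than shared ones. The WT specific peaks had a median −log10 q of 8.12 (from 4.68 to 15.2) and a median width of 221 bp (140 to 539). The shared WT peaks had 18.4 (from 6.76 to 62.6) and 402 bp (132 to 1196). Over the whole WT list the medians were 8.38 and 250 bp for specific and 21.1 and 424 bp for shared peaks. The values of the 2 classes overlapped.

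The 28 shared pairs overlap by the rule that defines the class, so their match in position is described only. A median of 95.7% of the WT peak lay inside its KO partner, against 93.4% over all shared peaks, and the lowest share was 67.4%. The KO interval was the wider one in 18 of 28 pairs (64.3%), against 53.1% of all shared peaks. Summits were a median of 41.5 bp apart (from 0 to 648), against 31 bp over all shared peaks.

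Most peaks lay away from gene starts. Of the 48 WT peaks, 38 had their centre in the gene and 10 in a flank. Within 1 kb of a RefSeq start of a protein-coding gene lay 10 WT peaks, 4 specific and 6 shared, and 6 KO peaks, all shared. The same counts over the whole lists are not given here, so whether the family differs from them in this was not tested. The start of 4 genes lay inside a WT peak (Plcb1, Plcd1, Plcg1 and Plcl1) and of 2 inside a KO peak (Plcg1 and Plcl1). Over 17273 protein-coding genes with an entry, 40.1% had a start inside a WT peak, 37.1% inside a KO peak and 3.71% inside a WT specific peak.

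The window of 10 kb set the counts at the short genes more than at the long ones. The WT count was 38 with no window, 48 with 10 kb and 59 with 20 kb, and the WT specific count 16, 20 and 23. With no window, Plcb3 kept 1 of 4 WT peaks, Plcd1 2 of 4 and Plcd3 2 of 5, and Plcb3 and Plcd1 had no WT specific peak. The outermost peak inside it was the one of Plcd1 at 9.02 kb, and the nearest outside were a shared WT peak of Plcb3 at 11.5 kb and a WT specific one of Plcd3 at 11.6 kb. At Plcb1 the WT specific count was 9 in the gene body alone, because the peak at the start is centred 0.055 kb upstream. Windows of 5 and 20 kb left it at 10, and the nearest gene end gave 12 of 18.

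Among 429 protein-coding genes whose length is within 2 times that of Plcb1, the median was 2 WT peaks and 1 WT specific peak. Of these genes, 3 others had at least 10 WT specific peaks, and 33.3% of their pooled WT peaks were WT specific. The family was selected on the count of 10 at Plcb1, so its high place among these genes follows from the selection and is a description only. By the summed difference in WT specific, KO specific and shared counts, the gene most like Plcb1 was Arhgap26, with 10, 1 and 7 peaks. Next came Pard3 with 7, 1 and 5 and Pde4b with 6, 1 and 4. The predicted genes Gm38667 and Gm38666 on chromosome 18, which overlap, followed with 5, 0 and 5 each.

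The pathway up- and downstream of these enzymes was read from lists of 49 other genes, of which 40 had a peak. Of their 141 WT peaks, 39 (27.7%) were WT specific, and of their 113 KO peaks, 10 (8.85%) were KO specific. Both shares lay near those of all peaks, 27.3% and 9.59%. Of the 38 genes with a WT peak, 20 (52.6%) had a WT specific one, against 39.1% of all protein-coding genes with a WT peak. Of the 39 with a KO peak, 9 (23.1%) had a KO specific one, against 12.3%. A gene with more peaks can more easily hold a specific one. The pathway genes and all genes were not matched for number of peaks or length, so the gap in these shares of genes was not tested.

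Upstream, the 4 Gq class alpha subunits had 11 WT peaks, 3 specific, and 11 KO peaks, 3 specific. Gnaq, which couples receptors to the beta enzymes, had 2 specific and 3 shared WT peaks and 2 specific KO peaks. The 7 kinases that supply PIP2 had 22 WT peaks, 7 specific. Of these, 5 were at Pip5k1a, which makes PIP2, beside 2 shared ones. Pi4kb and Pi4k2a had 4 shared WT peaks each and no WT specific one.

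Downstream, the 3 IP3 receptor genes had 27 WT peaks, 6 specific, and no KO specific peak. Itpr2 had 5 specific and 9 shared WT peaks, and Itpr1 had 1 and 8. Among 4 genes that turn over IP3, Inpp5a, a phosphatase, had all 4 WT specific peaks beside 4 shared ones. The 7 protein kinase C genes had 30 WT peaks, 10 specific. Prkca, a conventional isoform, had 4 specific and 10 shared WT peaks and 1 KO specific peak, and Prkce had 2, 4 and 1.

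The 10 DAG kinases, which remove DAG, had 19 WT peaks, 5 specific, and 3 KO specific peaks. Dgki had the most shared ones, 5, and Dgkd had 2 peaks specific to WT beside 1 specific to KO. The 5 genes of store-operated calcium entry had 11 WT peaks, 2 specific, with 4 shared at Stim1, the calcium sensor. The 4 RasGRP genes had 2 WT peaks, 1 at Rasgrp2 and 1 at Rasgrp3, both shared. Of the 5 phospholipase C genes outside the 10, Plcl2, the closest relative of Plcl1, had 2 specific and 4 shared WT peaks, Plcz1 had a single peak, which was KO specific, Plch2 had 1 shared peak, and Plcg2 and Plch1 had none in either list.

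**Figure D4:**
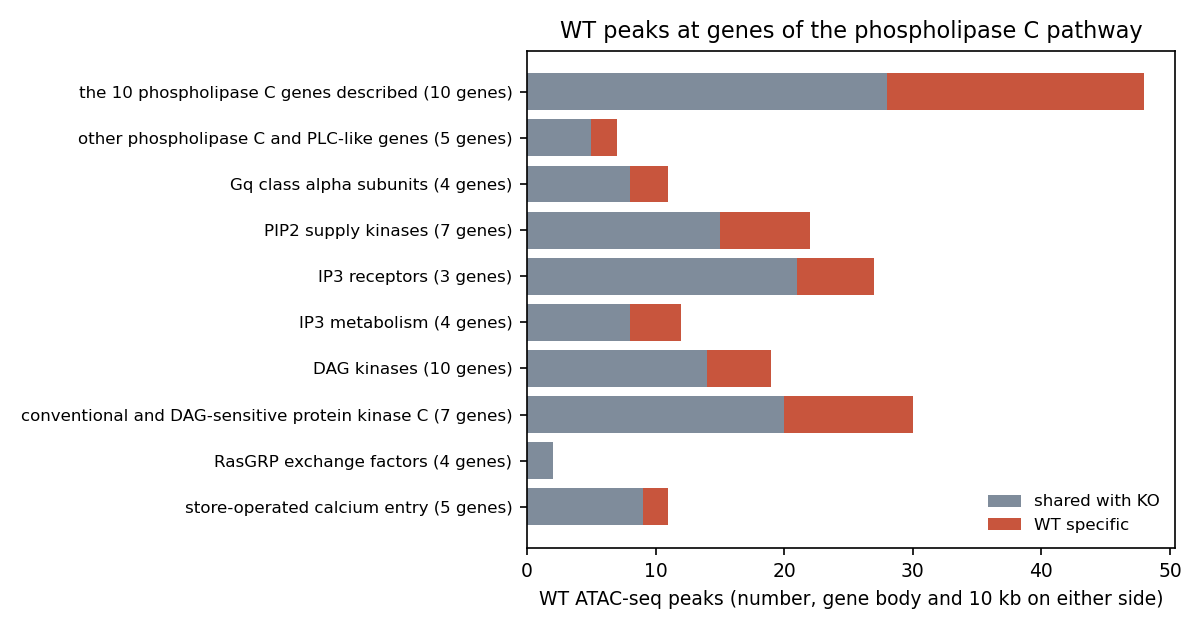
Number of WT peaks (horizontal axis) at the 10 phospholipase C genes and at 9 lists of other pathway genes, split into peaks shared with the KO list and WT specific peaks. The 10 genes have 20 specific of 48, and the protein kinase C list 10 of 30.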

How the data were processed

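ATAC-seq peak lists of 5 kinds (full WT, full KO, shared, WT specific, KO specific) were read as deposited, in narrowPeak layout without a header. By that layout, the authors' values for each peak were read as a fold, a −log10 q-value and a summit offset in bases. The fold was taken as the ratio of the peak's signal to that of the surrounding background. The build is mm10, per the submitters' processing notes. The aligner, the peak caller, the Tn5 offset, the handling of duplicates and the removal of calls are not given in the sources used here, and each can change the number and edges of peaks. Per the peak names, all values come from replicate 1, so no count of reads, depth or interval is given. Replicates 2 and 3 were not analysed here.

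Gene positions and starts came from RefSeq tables of GRCm38.p6, without exons. Promoter entries that overlap on opposite strands were reverse complements in 1241 of 1241 pairs. Overlaps were computed in Python 3.11.15 (pandas 2.3.3) and checked with bedtools 2.31.1 and on simulated data, where 12 of 12 checks passed. Coordinates count from 1. The 10 genes and all lists were chosen with earlier results of these data known. Named were the 10 genes, their specific and strongest peaks and those at their starts, pathway genes with at least 3 specific or the most shared peaks of a list, and the 5 genes most like Plcb1. Itpr1, Plcg2, Plch1, Plch2 and Plcz1 were named after their values were seen. Alternatives in window, overlap and threshold were computed. A marker gene of another cell type is not reported here.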

Additional observations from a re-analysis of the deposited data

How the results depend on the processing

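Of 82 values under alternatives, 67 stayed within 1.5 times the reported count or difference, or, for a share, within its 95% Wilson interval. That interval served as a limit for closeness only and measures no spread between libraries. It is wide at these counts. A KO specific share of 10.3% (reported 3.45%) and a WT specific share of 29.4% without Plcb1 (reported 41.7%) still fell inside it. Differences in median −log10 q (from −11.4 to −8.24) and width (from −204.5 to −142.5 bp) between WT specific and shared peaks kept their sign under all 8 alternatives of each. With both lists limited to a −log10 q of at least 10, the family had 30 WT peaks, 11 of them WT specific (3 at Plcb1), and 4 KO specific peaks (17.4% of 23). The whole lists then gave 24.1% and 12.2%. With the limit on the list in question only, 6 of 30 WT peaks (20.0%, against 14.4% of the whole list), 2 at Plcb1, and 0 of 23 KO peaks (0%) were specific. A peak whose partner falls under the limit counts as specific when both lists are limited. Requiring a partner to cover 50% of the peak, or each to cover 50% of the other, gave 3 KO specific peaks. Without Plcb1, an alternative chosen after seeing the data, 10 WT specific peaks were left, and without Plcb1 and Plcb4 there were 6, 24.0% of the WT peaks. No paired analysis was possible because the lists hold 1 library per genotype and no test was made. Depth is unknown and limits what an absent peak shows.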
